A study of Homo sapiens with 6 samples.

Results

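The Toll-like receptors and their partners were followed as 10 genes: TLR1, TLR2, TLR4, TLR6, TLR7, TLR9, TLR10, MYD88, CD180 and LY86. They are 10 of 19775 genes with a probe set on the array, and all 10 were among the 12012 tested. The genes were chosen by name with earlier results of these arrays known, and 1 of them, TLR1, had already been seen near the top of the comparison of miR26a with empty. The probe set that stands for a gene was selected on its mean over the 6 arrays, as the highest, so levels are given as a description and only differences were tested. RNA came from 3 Burkitt lymphoma lines, a MYC-driven malignancy of germinal centre B cells, named Raji, Namalwa and Ramos. Each line gave 1 miR26a array, from cells transfected for inducible expression of that microRNA, and 1 array labelled empty. The treatment note lists doxycycline at 0.5 µg/ml for 72 h for every sample, in both groups. Raji and Namalwa carry Epstein-Barr virus and Ramos does not. The labels do not say whether a transfected line was 1 clone or a pool, nor whether arrays came from separate cultures. The p-values therefore speak only of these 6 samples. With 1 array for each line and group, no spread of replicates enters them. Their error is how far the change with miR26a differed between lines, pooled in part over all tested genes. This holds for the pairs of lines too.

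Toll-like receptors sense conserved parts of microbes. TLR2 pairs with TLR1 or TLR6 to bind bacterial lipopeptides, TLR10 is their closest relative, TLR4 answers lipopolysaccharide, and TLR7 and TLR9 sense RNA and DNA inside endosomes. Apart from some TLR4 signals, the receptors named here with a ligand pass the signal to kinases and NF-kB through the adaptor MYD88. CD180 resembles a Toll-like receptor without the signalling domain, sits on B cells bound to the secreted protein LY86, and modulates their response to lipopolysaccharide. Human B cells are known for TLR1, TLR6, TLR7, TLR9, TLR10 and CD180, and for little TLR2 or TLR4.

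The microRNA named in the group label is shown first, and its mature level was not analysed here. The labels give its name only. The sequences are the mature 5′ arms in RefSeq (GRCh38.p14) of miR-26a, identical from its loci on chromosomes 3 and 12, and of its family member miR-26b. Capitals mark the seed, bases 2 to 8, which both share and which pairs with target RNAs:
hsa-miR-26a-5p: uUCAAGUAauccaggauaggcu
hsa-miR-26b-5p: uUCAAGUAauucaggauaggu

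Promoters are shown for TLR9, which varied most over the arrays, and for CD180 and LY86, whose products bind each other. Each window runs from 250 bases before to 50 after the RefSeq gene start (GRCh38.p14), 5′ to 3′ on the gene's strand, and 7 of the 10 genes had one. Capitals mark matches on either strand to 3 motifs: GAGGAA, a core of PU.1 sites, ATGCAAAT, the octamer of B-cell promoters, and GAAANNGAA, a core of interferon response elements. No marked matches overlap.
TLR9 (chr3:52225596-52225895, minus strand): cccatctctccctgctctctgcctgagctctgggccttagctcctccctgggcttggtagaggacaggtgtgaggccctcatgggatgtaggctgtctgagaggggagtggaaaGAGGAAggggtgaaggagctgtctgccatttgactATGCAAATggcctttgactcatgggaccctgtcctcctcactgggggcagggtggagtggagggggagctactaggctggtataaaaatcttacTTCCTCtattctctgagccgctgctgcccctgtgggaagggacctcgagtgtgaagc
CD180 (chr5:67196750-67197049, minus strand): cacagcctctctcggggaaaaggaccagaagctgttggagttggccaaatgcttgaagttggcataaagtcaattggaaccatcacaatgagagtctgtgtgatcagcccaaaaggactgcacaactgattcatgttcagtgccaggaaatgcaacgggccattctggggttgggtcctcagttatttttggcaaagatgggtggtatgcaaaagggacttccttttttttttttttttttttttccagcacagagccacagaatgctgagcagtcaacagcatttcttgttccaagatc
LY86 (chr6:6588470-6588769, plus strand): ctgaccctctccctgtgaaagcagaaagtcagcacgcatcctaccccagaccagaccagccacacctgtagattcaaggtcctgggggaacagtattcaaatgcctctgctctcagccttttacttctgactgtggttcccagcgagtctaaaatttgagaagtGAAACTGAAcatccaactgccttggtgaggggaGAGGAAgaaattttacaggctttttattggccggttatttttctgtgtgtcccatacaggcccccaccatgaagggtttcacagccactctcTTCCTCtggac

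TLR9 held the octamer once and GAGGAA at 2 places, LY86 held GAGGAA at 2 places and GAAANNGAA once, and CD180 held none of these letters. Among 35116 promoters of the same length, 27.9% held GAGGAA, 1.77% the octamer and 8.11% GAAANNGAA. Over the 7 windows the counts were 5, 1 and 2. A match describes the letters and is no measured site.

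Values are log2 intensities normalised by the authors with RMA, and 4.42, the median over all non-control probe sets, was the minimum mean for a test. Array medians lay between 4.36 and 4.44. The Namalwa empty array stood apart: between the 3′ and 5′ controls for ACTB, a sign of RNA quality, the gap was 3.58 log2 units there and 1.80 to 1.98 elsewhere. All 6 B-cell markers measured (MS4A1, CD79A, CD79B, PAX5, CD22 and BLK) had means of 7.24 to 10.5. The mean of 8 monocyte markers was 3.54 to 4.42 on miR26a arrays and 3.55 to 4.10 on empty arrays, with 2 of 8 at or above the minimum and LYZ lowest at 3.20. ITGAM, the highest of these at a mean of 5.29, measured 7.63 in Raji, 5.48 in Namalwa and 3.58 in Ramos with miR26a, against 6.46, 4.62 and 3.97 with empty. Like TLR9 and TLR10 it was highest in Raji and lowest in Ramos, and its miR26a minus empty difference was 0.55 (limma adjusted p = 0.381). Its pairs differed by 1.17 in Raji, 0.87 in Namalwa and -0.39 in Ramos. Both Ramos arrays of ITGAM lay below the minimum, so its Ramos pair and the sizes against Ramos are inexact. CSF1R, the other tested monocyte marker, had a mean difference of -0.077. It lay below the minimum on every array of Namalwa and Ramos and reached it only through Raji. Its pairs of -0.016 in Namalwa and -0.030 in Ramos thus give no sure direction. The B-cell markers MS4A1, CD22 and CD79A had the line order of ITGAM. MS4A1 averaged 12.3 in Raji, 9.88 in Namalwa and 7.60 in Ramos. PAX5 and BLK had the reverse order, and CD79B was highest in Raji and lowest in Namalwa. The part of these markers in the members' differences was not tested. Of 5 plasmacytoid dendritic cell markers 3 reached the minimum, with PTCRA highest at 6.50 and CLEC4C at 2.51, and the list mean was 4.31 to 4.35 on miR26a arrays and 4.20 to 4.41 on empty arrays. Of 5 T-cell markers 2 reached it, with CD5 highest at 5.56, and the list mean was 3.89 to 3.99 on miR26a and 3.93 to 4.14 on empty arrays. Fewer cells with an RNA and less RNA per cell cannot be told apart here.

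**Figure D1:**
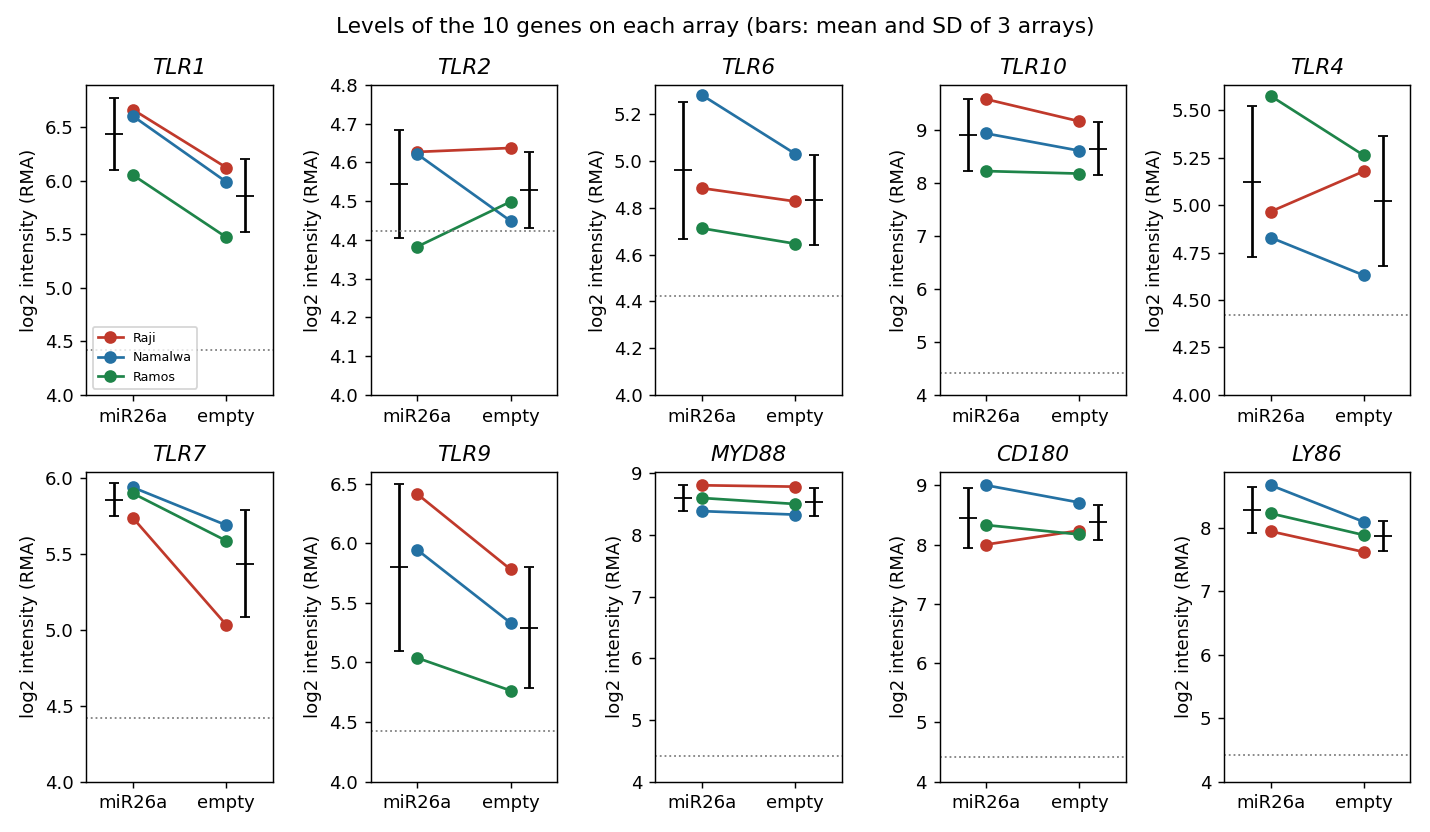
Log2 RMA intensity of the 10 genes on each array, with miR26a left and empty right, points joined by line, black bars for the mean and SD of 3 arrays a group and a dotted line at the level minimum of 4.42. TLR1, TLR6, TLR7, TLR9, TLR10, MYD88 and LY86 are higher with miR26a in every line, and TLR2 lies next to the minimum.

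With miR26a against empty, no member passed the test over all genes, and the differences leaned upward. The list was chosen with earlier results known, that of TLR1 in this comparison among them. The counts below include TLR1, so they describe the lean and do not test it. Called genes were 0 of 10, and 0 (0%) of the 12012 tested at a limma adjusted p under 0.05. The median difference, miR26a minus empty, was 0.19 over the members and -0.0098 over all tested genes. On the miR26a array, 7 of 10 members in Raji, 10 of 10 in Namalwa and 9 of 10 in Ramos had the higher value, against 46.7%, 47.6% and 48.3% of all tested genes. Together, 7 members were higher in all 3 lines, against 15.5% of all tested genes, and 0 were lower, against 19.6%. At an unadjusted p under 0.05 there were 5 members (TLR1, TLR7, TLR9, TLR10 and LY86) and 12.9% of all genes. Without Namalwa there were 4 members (TLR1, TLR7, TLR9 and LY86) and 1214 of the 12012 genes, and none of the 4 had an adjusted p under 0.05.

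Among the lipopeptide receptors, TLR1 had the smallest p of the members. It measured 6.66 in Raji, 6.60 in Namalwa and 6.05 in Ramos with miR26a, against 6.12, 5.99 and 5.47 on the empty arrays of those lines. The miR26a array was higher within each line, by 0.54, 0.61 and 0.58, while the groups overlapped because Ramos was low. The mean was 6.44 ± 0.34 with miR26a and 5.86 ± 0.34 with empty (SD, n = 3 each), a difference of 0.58 (SE 0.10, 95% interval 0.36 to 0.80), or 1.49-fold, and it ranked 29 of 12012 by p. It did not pass (limma adjusted p = 0.073). On other settings it passed without Raji (limma adjusted p = 0.0323) and with an intensity trend and robust prior (limma adjusted p = 0.0413), with a range of 0.0323 to 1.00 in adjusted p across 10 alternatives. Without Namalwa the difference was 0.56.

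TLR10, an orphan relative of TLR1, measured 9.57 in Raji, 8.93 in Namalwa and 8.22 in Ramos with miR26a, against 9.16, 8.60 and 8.17 with empty. Its difference of 0.26 (SE 0.11) was carried by Raji and Namalwa, at 0.42 and 0.33, with 0.047 in Ramos (limma adjusted p = 0.355). TLR6, the other partner of TLR2, stood at 4.88, 5.28 and 4.71 with miR26a, against 4.83, 5.03 and 4.65 with empty in Raji, Namalwa and Ramos. The Namalwa pair differed by 0.25 and the other pairs by 0.057 and 0.066, for a mean of 0.12 (limma adjusted p = 0.667). TLR2 itself was at 4.63, 4.62 and 4.38 with miR26a, against 4.64, 4.45 and 4.50 with empty. These values lie at the level minimum, 1 of the 6 below it, and the mean difference was 0.015 (95% interval -0.22 to 0.25). The genes TLR10, TLR1 and TLR6 are consecutive protein-coding neighbours on chromosome 4, and their differences were 0.26, 0.58 and 0.12.

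The receptors of nucleic acids, TLR7 and TLR9, had higher values with miR26a in every line. TLR9, which binds CpG-rich DNA, measured 6.41 in Raji, 5.94 in Namalwa and 5.04 in Ramos with miR26a, against 5.78, 5.33 and 4.76 with empty. The pairs differed by 0.63, 0.61 and 0.27. The mean was 5.80 ± 0.70 with miR26a and 5.29 ± 0.51 with empty (SD, n = 3 each), and the difference of 0.51 (SE 0.11), or 1.42-fold, did not pass (limma adjusted p = 0.119). TLR7, which binds single-stranded RNA, measured 5.73 in Raji, 5.94 in Namalwa and 5.90 in Ramos with miR26a, against 5.03, 5.69 and 5.58 with empty. By the brightest probe sets, it was the only 1 of the 10 members whose 3 miR26a arrays all lay above the 3 empty arrays. That was a pattern of 1.61% of all tested genes. Among other probe sets, 222952_s_at of TLR7 and 1552798_a_at of TLR4 had this pattern too. The difference of TLR7 was 0.42 (SE 0.12), with 0.70 in Raji, 0.25 in Namalwa and 0.31 in Ramos, and did not pass (limma adjusted p = 0.176). Without Namalwa the differences were 0.45 for TLR9 and 0.51 for TLR7, and without Raji they were 0.44 and 0.28.

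TLR4, the lipopolysaccharide receptor, measured 4.97 in Raji, 4.83 in Namalwa and 5.58 in Ramos with miR26a, against 5.18, 4.63 and 5.26 with empty. Its pairs went opposite ways, by -0.21, 0.20 and 0.31, and the mean difference was 0.10 (limma adjusted p = 0.792).

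LY86, the secreted partner of CD180, measured 7.94 in Raji, 8.67 in Namalwa and 8.23 in Ramos with miR26a, against 7.62, 8.09 and 7.89 with empty. It was higher with miR26a in each line, by 0.33, 0.58 and 0.34, with a mean difference of 0.42 (SE 0.11), or 1.33-fold, that did not pass (limma adjusted p = 0.146) and was 0.33 without Namalwa. CD180 measured 8.001 in Raji, 9.001 in Namalwa and 8.33 in Ramos with miR26a, against 8.24, 8.71 and 8.17 with empty. The pairs differed by -0.24, 0.29 and 0.16, for a mean of 0.071 (95% interval -0.20 to 0.35). Only LY86 of this complex thus had 1 direction in all 3 lines, and whether the 2 genes' differences differ was not tested.

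MYD88, the shared adaptor, measured 8.81 in Raji, 8.39 in Namalwa and 8.60 in Ramos with miR26a, against 8.78, 8.33 and 8.50 with empty. Its pairs differed by 0.022, 0.057 and 0.097, and the mean of 0.059 had a 95% interval of -0.16 to 0.28.

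**Figure D2:**
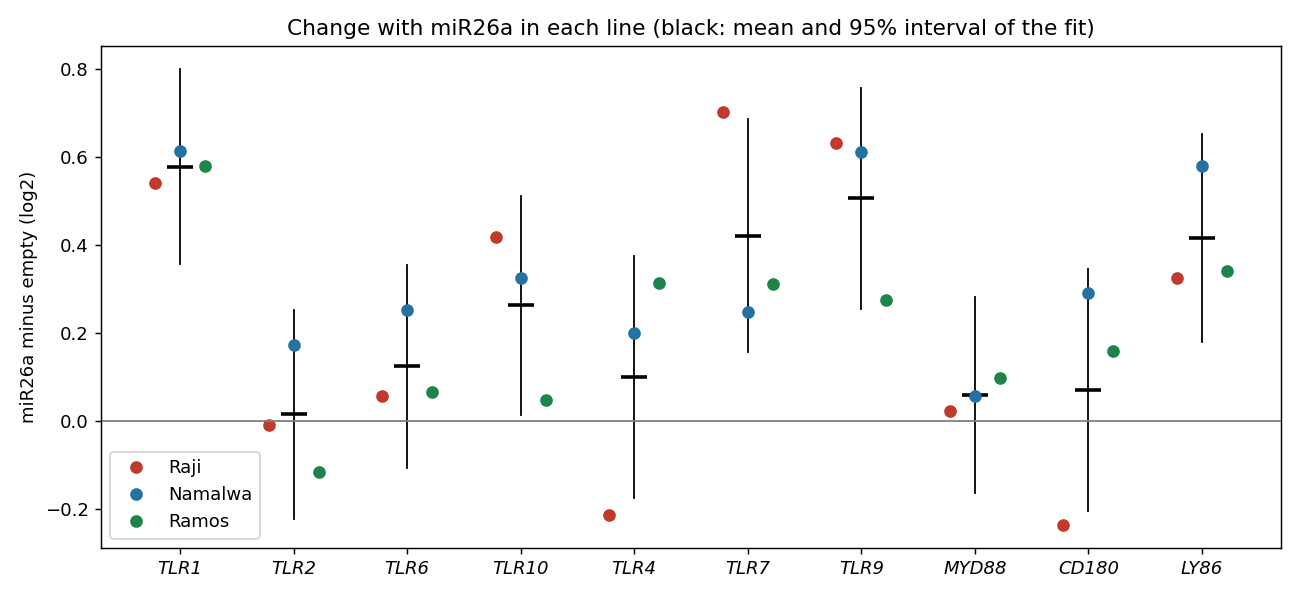
Difference miR26a minus empty on the log2 scale for each gene, with a coloured point for each line (1 pair of arrays) and a black mark and line for the mean and 95% interval of the fit. TLR1 has its 3 points between 0.54 and 0.61, whereas TLR2, TLR4 and CD180 have points on both sides of 0.

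The genes TLR4, TLR6, TLR7 and TLR10 had more than 1 probe set, and their other probe sets served as a check. Names ending in x_at mark probe sets whose probes can match other transcripts, and the brightest sets of TLR4 and TLR10 are of this kind. For TLR10 the mean differences of miR26a minus empty were 0.26 by 223751_x_at and 0.36 by 223750_s_at, and for TLR7 they were 0.42 by 220146_at and 0.36 by 222952_s_at, all positive in every line. The size by line was not shared: 222952_s_at gave 0.15 in Raji, 0.36 in Namalwa and 0.56 in Ramos, and 223750_s_at gave 0.24, 0.68 and 0.16. TLR6 gave 0.12 and 0.050, its dimmer set lying below 4.42 on all arrays. The 4 sets of TLR4 gave 0.10, 0.33, 0.043 and 0.41, and for 1552798_a_at and 232068_s_at the value was higher with miR26a in all 3 lines. The means of 221060_s_at and 232068_s_at, 4.19 and 3.83, lay below 4.42. The brightest set of TLR4 was thus the only 1 of the 4 with a negative pair in Raji, and the sets did not give 1 answer.

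**Figure D3:**
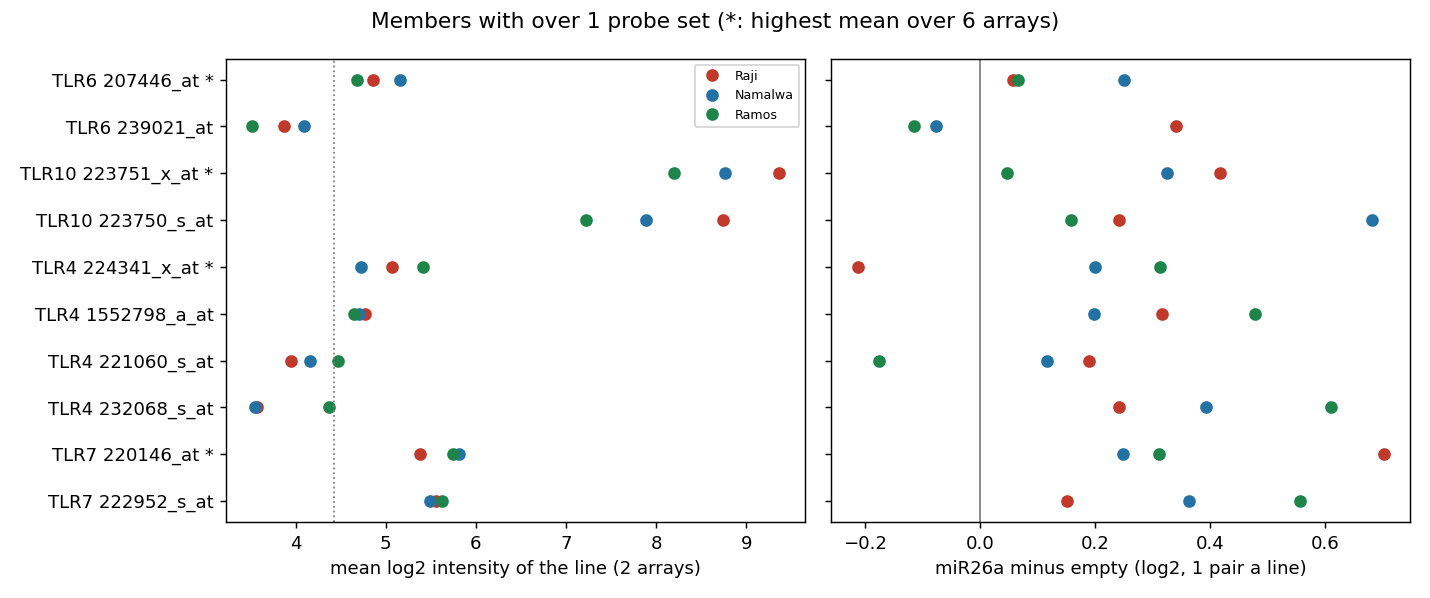
Probe sets of the members with more than 1, showing the mean log2 level of each line on the left (dotted line at 4.42) and the difference miR26a minus empty in each line on the right, with an asterisk for the brightest set. The order of the lines is the same in both TLR10 sets and differs between the TLR4 sets.

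Between lines, TLR9 and TLR10 were the members that differed in all 3 pairs. Both were highest in Raji, intermediate in Namalwa and lowest in Ramos. Each line mean, here and below, is of 1 miR26a and 1 empty array. Its SD therefore reflects the difference between those 2 arrays and is no spread of replicates. TLR9 averaged 6.10 ± 0.45 in Raji, 5.64 ± 0.43 in Namalwa and 4.90 ± 0.19 in Ramos (SD, n = 2 each). Raji exceeded Ramos by 1.20 (SE 0.14), or 2.29-fold (limma adjusted p = 7.40e-05), Raji exceeded Namalwa by 0.46 (limma adjusted p = 0.021), and Namalwa exceeded Ramos by 0.74 (limma adjusted p = 0.00692). The arrays of Raji and Namalwa overlapped, since the Namalwa miR26a array (5.94) lay above the Raji empty array (5.78), and the fit compares them within group. TLR10 averaged 9.36 ± 0.29 in Raji, 8.77 ± 0.23 in Namalwa and 8.19 ± 0.033 in Ramos (SD, n = 2 each), with no overlap between lines. Raji exceeded Ramos by 1.17 (SE 0.14), or 2.25-fold (limma adjusted p = 7.93e-05), Raji exceeded Namalwa by 0.60 (limma adjusted p = 0.00529), and Namalwa exceeded Ramos by 0.57 (limma adjusted p = 0.0212). The other TLR10 probe set gave 1.53, 0.86 and 0.67 for these pairs.

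Raji differed from Namalwa in 6 of 10 members, against 46.1% of all tested genes. TLR9, TLR10 and MYD88 were higher in Raji (22.8% of all genes were), and TLR7, CD180 and LY86 were lower (23.4%). CD180 averaged 8.12 ± 0.17 in Raji and 8.86 ± 0.21 in Namalwa, a difference of -0.74 (SE 0.15, limma adjusted p = 0.00295), and no array of Raji reached those of Namalwa. LY86 averaged 7.78 ± 0.23 in Raji and 8.38 ± 0.41 in Namalwa, a difference of -0.60 (SE 0.13, limma adjusted p = 0.00397), again with no overlap. The adaptor MYD88 averaged 8.80 ± 0.016 in Raji and 8.36 ± 0.040 in Namalwa (SD, n = 2 each), a difference of 0.44 (SE 0.12, limma adjusted p = 0.0148). TLR7 averaged 5.38 ± 0.50 and 5.81 ± 0.18 in these lines, and its difference of -0.43 (limma adjusted p = 0.0354) did not appear in the other probe set, which gave 0.068 (limma adjusted p = 0.718). Without the Namalwa empty array 3 of the 6 calls were left (TLR10, CD180 and LY86). The adjusted p of TLR9 was then 0.145, of MYD88 0.0678 and of TLR7 0.253 (limma). TLR9 was also lost without the Raji miR26a array (limma adjusted p = 0.115), MYD88 without the Namalwa miR26a array (0.0629) or the Raji empty array (0.0702), and TLR7 without the Raji empty array (0.351).

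Raji differed from Ramos in 3 of 10 members, a smaller share than the 50.5% of all tested genes. TLR1, TLR9 and TLR10 were higher in Raji (26.1% of all genes were), and 0 members were lower (24.4%). TLR1 averaged 6.39 ± 0.38 in Raji and 5.76 ± 0.41 in Ramos (SD, n = 2 each), a difference of 0.63 (SE 0.12, limma adjusted p = 0.00189). The 3 calls were kept when any 1 array of either line was left out. TLR4 and TLR7 came close, at -0.35 and -0.36 (limma adjusted p = 0.0814 and 0.0647), and passed with arrays centred on their medians (limma adjusted p = 0.0458 and 0.0457). Both depended on the probe set. The other set of TLR7, 222952_s_at, gave -0.059. For TLR4, 1552798_a_at gave 0.12, 221060_s_at -0.52 and 232068_s_at -0.80.

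Namalwa and Ramos, the pair of lines with the fewest called genes, differed in 6 of 10 members, against 14.7% of all tested genes. TLR1, TLR6, TLR9, TLR10 and CD180 were higher in Namalwa (8.09% of all genes were) and TLR4 was lower (6.57%). TLR6 averaged 5.16 ± 0.18 in Namalwa and 4.68 ± 0.047 in Ramos (SD, n = 2 each), a difference of 0.48 (SE 0.13, limma adjusted p = 0.0329). Its other probe set gave 0.57, but lay below the level minimum on all arrays and is a weak check. CD180 averaged 8.86 ± 0.21 in Namalwa and 8.25 ± 0.11 in Ramos (SD, n = 2 each), a difference of 0.61 (SE 0.15, limma adjusted p = 0.0251). TLR1 differed by 0.53 (SE 0.12, limma adjusted p = 0.0177). TLR4 averaged 4.73 ± 0.14 in Namalwa and 5.42 ± 0.22 in Ramos (SD, n = 2 each), a difference of -0.69 (SE 0.15, limma adjusted p = 0.0146), but 1552798_a_at gave 0.054, 221060_s_at -0.31 and 232068_s_at -0.83. The sets 221060_s_at and 232068_s_at had means below the level minimum, at 4.19 and 3.83. Of the 6 calls, 2 were left without the Namalwa empty array (TLR9 and CD180), 3 without the Ramos empty array (TLR4, TLR9 and TLR10), and 0 without the miR26a array of Namalwa or of Ramos. Called genes in all were 936, 870, 983 and 957 in those 4 fits, against 1761 with every array.

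TLR2 differed in no pair of lines, with Raji, Namalwa and Ramos at 4.63, 4.53 and 4.44. The order of the levels by line was Raji, Namalwa, Ramos for TLR1, with Raji and Namalwa not told apart (difference 0.097, 95% interval -0.18 to 0.37). For MYD88 it was Raji, Ramos, Namalwa, and only its ends differed. For CD180 and LY86 it was Namalwa, Ramos, Raji, with Ramos and Raji not told apart in either (Raji minus Ramos -0.13, 95% interval -0.47 to 0.21, and -0.27, -0.56 to 0.015), nor Namalwa and Ramos in LY86 (0.33, limma adjusted p = 0.131). The ACTB difference of the Namalwa empty array moves with every comparison that uses Namalwa, and its part in them was not tested.

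**Figure D4:**
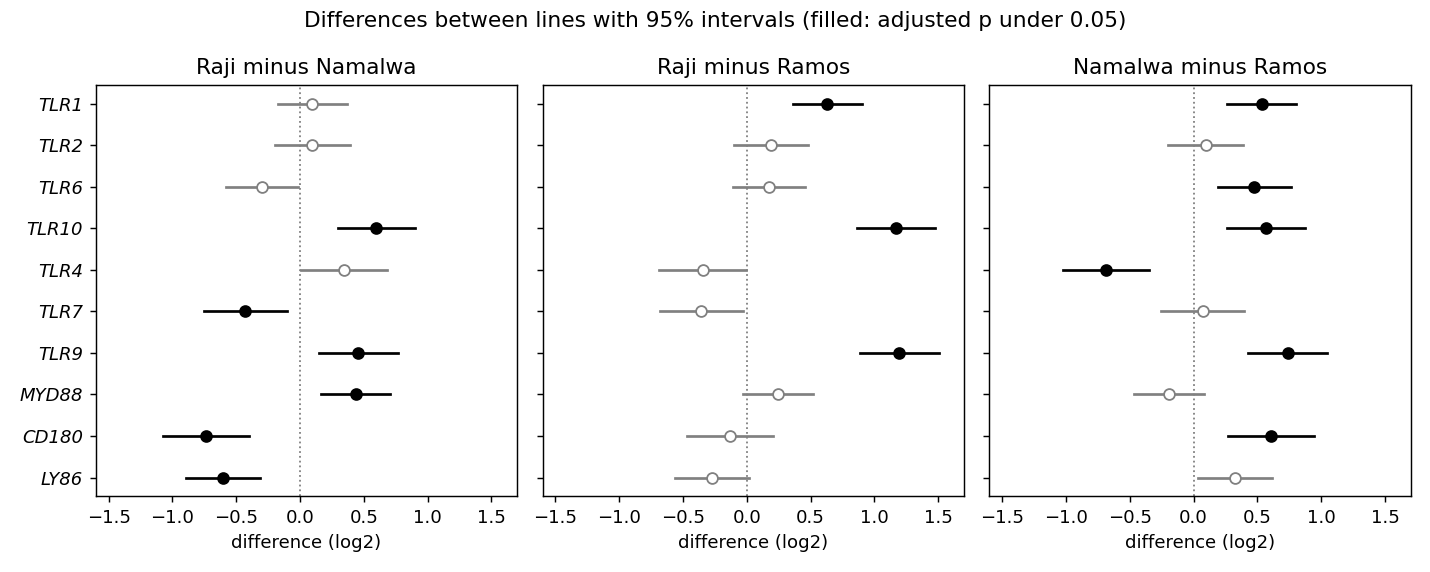
Differences between lines on the log2 scale for the 10 genes, with 95% intervals from the fit (2 arrays a line), filled where the adjusted p is under 0.05 and open otherwise. TLR9 and TLR10 are filled in all 3 panels, and CD180 and LY86 are the leftmost points for Raji minus Namalwa.

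The genes that carry, help or restrain these receptors were taken from a list of 55, of which 51 had a single-gene probe set used here and 41 were tested. With miR26a, 0 of the 41 passed (limma, 5 at an unadjusted p under 0.05), 10 were higher and 6 lower in all 3 lines, and the median difference was 0.037. Over all tested genes 12.9% had an unadjusted p under 0.05, 15.5% were higher in all 3 lines and 19.6% were lower. The 10 tested genes of trafficking and processing had a median of 0.14 and the 19 adaptors, kinases and ligases -0.048. CTSS, the endosomal protease cathepsin S, measured 7.96 in Raji, 9.04 in Namalwa and 8.80 in Ramos with miR26a, against 7.61, 8.12 and 8.44 with empty. That was higher in each line, by 0.35, 0.92 and 0.36, and the mean of 0.54 (limma adjusted p = 0.13) became 0.36 without Namalwa. LRRC59, a membrane protein of the endoplasmic reticulum that helps nucleic acid receptors reach endosomes, was lower with miR26a by 0.38, 0.45 and 0.39 in Raji, Namalwa and Ramos (mean -0.41, limma adjusted p = 0.134). LY96, the MD-2 coreceptor of TLR4, had differences of 0.41, 0.64 and 0.14 (mean 0.39, limma adjusted p = 0.203), and IRF7, an interferon regulator downstream of TLR7 and TLR9, of 0.18, 0.22 and 0.38 (mean 0.26, limma adjusted p = 0.324). The other receptors TLR3, TLR5 and TLR8 had means of 2.95, 4.01 and 2.62, below the level minimum, and were not tested.

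More genes of the list were called between lines than with miR26a, as was so over all tested genes. Raji and Namalwa differed in 20 of 41 (6 higher and 14 lower in Raji), Raji and Ramos in 29 of 41 (12 and 17), and Namalwa and Ramos in 8 of 41 (5 higher and 3 lower in Namalwa). As shares these were 48.8%, 70.7% and 19.5%, against 46.1%, 50.5% and 14.7% of all tested genes. For Raji against Namalwa and for Namalwa against Ramos the share thus lay near that of all genes. The median differences were -0.14, -0.13 and -0.042, against 0.053, 0.058 and 0.0020 over all tested genes.

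Of the 10 tested genes of trafficking and processing, 4 were lower and 1 higher in Raji against Namalwa, and 6 were lower and 0 higher against Ramos. Of all tested genes 23.4% were lower and 22.8% higher in Raji against Namalwa, and 24.4% and 26.1% against Ramos. CTSB, the protease cathepsin B, averaged 3.98 ± 0.29 in Raji, 6.92 ± 0.25 in Namalwa and 6.71 ± 0.043 in Ramos (SD, n = 2 each), at -2.94 and -2.73 for Raji minus Namalwa and Raji minus Ramos (limma adjusted p = 1.35e-07 and 2.18e-07). Both Raji arrays lay below the level minimum, which the gene reached through Namalwa and Ramos, so the size is no exact fold. LGMN, the asparaginyl endopeptidase legumain, averaged 6.33 in Raji, 7.98 in Namalwa and 7.74 in Ramos, at -1.66 and -1.41 (limma adjusted p = 1.50e-05 and 3.91e-05). TASL, an adaptor that links endosomal receptors to IRF5, averaged 6.81, 8.29 and 8.58, at -1.48 and -1.78 (limma adjusted p = 6.69e-05 and 1.76e-05).

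IRF7 averaged 6.07 in Raji, 4.48 in Namalwa and 5.12 in Ramos, and all 3 pairs differed (1.59, 0.95 and, for Namalwa minus Ramos, -0.64). SARM1, which restrains the pathway in human cells, averaged 5.64 in Raji, 4.20 in Namalwa and 3.91 in Ramos. In Namalwa and Ramos it lay below the minimum on every array, and its mean of 4.58 reached the minimum only through Raji. Both differences passed (1.45 and 1.73), but their sizes are inexact. Calls that rest on that entry are no separate support for a high level in Raji. TNFAIP3, the NF-kB inhibitor A20, averaged 7.24 in Raji, 6.99 in Namalwa and 5.77 in Ramos, so that Ramos was low, by 1.47 against Raji and 1.22 against Namalwa (limma adjusted p = 2.65e-05 and 6.55e-04). LY96 followed the same order, with 7.79, 7.69 and 6.81. CHUK, the kinase IKK-alpha, averaged 8.57 in Namalwa and 7.92 in Ramos, a difference of 0.65 (limma adjusted p = 0.0362). It averaged 7.77 in Raji, with a Raji minus Namalwa difference of -0.79 (limma adjusted p = 0.00465).

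**Figure D5:**
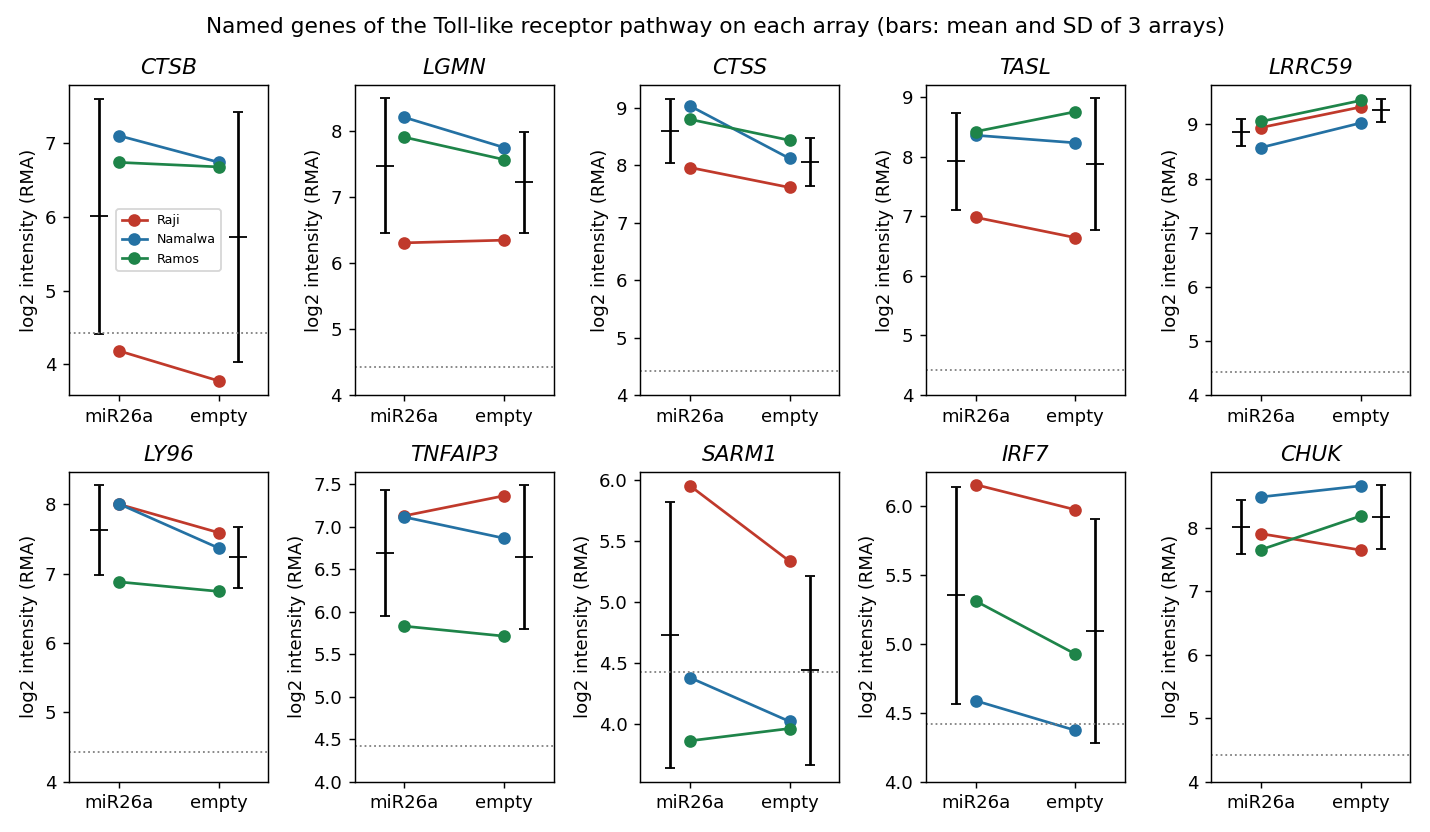
Log2 RMA intensity of the 10 named genes of the pathway list on each array, with miR26a left and empty right, points joined by line, black bars for the mean and SD of 3 arrays a group and a dotted line at 4.42. Raji lies apart in CTSB, LGMN, TASL, SARM1 and IRF7, and Ramos in TNFAIP3 and LY96.

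The genes most like the 3 members of largest spread were found by Pearson correlation over the 6 arrays, which share 3 lines and 2 groups, among 4915 to 7332 genes, as a description. They were CHRNA5 and RAB11B-AS1 for TLR9 (r = 0.997 and 0.992), DNAJC4 and COQ6 for TLR10 (0.991 and 0.989), and CARD8-AS1 and KATNAL1 for TLR1 (0.992 and 0.990). CHRNA5, a nicotinic receptor subunit, measured 5.97 in Raji, 5.78 in Namalwa and 5.27 in Ramos with miR26a, against 5.62, 5.41 and 5.12 with empty. Its arrays stand in the same order as those of TLR9, over a smaller range. CARD8-AS1 measured 7.30, 7.30 and 6.97 with miR26a, against 7.04, 6.89 and 6.51 with empty, and like TLR1 it was higher with miR26a in each line. These genes were selected for likeness on the same arrays, so a shared order or direction follows from the selection and is no separate result.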

How the data were processed

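RNA from 6 samples was hybridised to Affymetrix U133 Plus arrays. Values were deposited in log2, as intensities normalised by the authors with RMA, per the labels' design text. GCOS and RMA are named without versions in the submitters' processing notes. The table held 54675 probe sets, of which 41091 carried 1 gene symbol, and 41037 symbols were matched through Entrez IDs to a RefSeq table of GRCh38.p14. A gene was represented by its brightest probe set. limma (3.58.1, R 4.3.3) was fitted over all 12012 genes at or above the level minimum of 4.42, with terms for line and group, for miR26a minus empty and for 3 pairs of lines, with Benjamini-Hochberg adjustment at a threshold of 0.05. The line pairs the groups, since same-numbered arrays are of 1 line. Deviations from the group means correlated at 0.950 in Raji, 0.861 in Namalwa and 0.917 in Ramos. The fit was tested on simulated data. Alternatives were other scalings, minimums, probe set rules, priors and blocks, and leaving out lines or arrays.

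The members and lists were chosen with earlier results of these data known. The text names every member, of the pathway list the 4 largest called differences per pair of lines and the 4 smallest p for miR26a minus empty, and the 2 genes nearest in pattern to each of 3 members. TLR3, TLR5, TLR8 and single marker genes were named after their values were seen. IRAK4, TICAM2, UBE2V1 and PIK3AP1 were not analysed here. Matches of miR-26a seeds to transcripts were not analysed here. Precision is limited by the small number of arrays.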

Additional observations from a re-analysis of the deposited data

Results flagged for a closer look

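The difference miR26a minus empty had opposite signs between lines for 3 of the 10 members, each line giving 1 pair of arrays, so the difference between lines was not tested. TLR2 differed by -0.010 in Raji, 0.17 in Namalwa and -0.12 in Ramos, at levels next to the minimum of 4.42. TLR4 differed by -0.21 in Raji, 0.20 in Namalwa and 0.31 in Ramos by its brightest probe set. CD180 differed by -0.24 in Raji, 0.29 in Namalwa and 0.16 in Ramos.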

How the results depend on the processing

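Of 428 results of single members under alternatives, 365 kept direction and side of the threshold, 38 lost a call, 10 gained one and 15 changed sign. The paired fit is the one reported. With no replicate block and with a random replicate block, 0 genes and 0 members were called for miR26a minus empty. That comparison called 50 genes at a stricter level minimum, the 75th percentile (0 of 4 members tested), 102 genes and 1 member under a robust prior with intensity trend, and 0 to 203 genes and 0 to 1 members with 1 line left out (0 without Namalwa, 203 without Raji, 23 without Ramos). Members called for Raji minus Namalwa were 3 without the group term and 3 to 6 with 1 array left out. For Raji minus Ramos they were 5 with median-centred arrays and 1 of 4 tested at the 75th percentile. For Namalwa minus Ramos they were 2 of 4 tested at the 75th percentile, 2 without the group term and 0 to 3 with 1 array left out, where 870 to 983 genes were called.

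Of these signs, called values changed for TLR7 (Raji minus Namalwa) and TLR4 (Namalwa minus Ramos), each by another probe set. With 1 line left out, miR26a minus empty ran from -0.063 to 0.081 for TLR2, -0.039 to 0.22 for CD180 and -0.0068 to 0.26 for TLR4. With 1 array left out, Raji minus Namalwa ran from -0.021 to 0.22 for TLR2, Raji minus Ramos from -0.36 to 0.10 for CD180, and Namalwa minus Ramos from -0.058 to 0.20 for TLR7 and -0.024 to 0.21 for TLR2. With the mean of all probe sets TLR7 was at -0.028 for Namalwa minus Ramos, and with 222952_s_at, a choice made after seeing the data, at -0.13 there and at 0.068 for Raji minus Namalwa. Other probe sets of TLR4 gave -0.21 (221060_s_at, Raji minus Namalwa), 0.12 (1552798_a_at, Raji minus Ramos) and 0.054 (1552798_a_at, Namalwa minus Ramos). The cause was not tested. Levels near 4.42 limit TLR2, TLR4 and TLR6, and TLR9 in Ramos.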
